A study of Homo sapiens with 6 samples.

Results

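Clones 44a and 44b of KGN, an established line from a granulosa cell tumour of the human ovary, were compared with clones 4.72 and 3.11. The 4 libraries, of 6 in all, were chosen by title: those naming 1 clone, set by clone name across the FOXL2 genotypes. Clone 44a (FOXL2 WT/WT) and clone 44b (FOXL2 WT/C134W) share the name stem 44 and form 1 side, and 4.72 (FOXL2 WT/WT) and 3.11 (FOXL2 WT/C134W) form the other, so each side holds 1 library of each genotype. The study itself compared WT/WT with WT/C134W cells. In the WT/WT clones the C134W change had been reverted with CRISPR/Cas9, while the labels give no treatment for the WT/C134W clones. RNA of all libraries was extracted at 30 h after transfection, and the labels do not say with what. Each clone is 1 library, and the labels do not say whether 44a and 44b, or 4.72 and 3.11, have a common origin. The p-values therefore rest on how far the clone difference departs between the 2 genotypes in these 4 libraries, combined with spread shared across genes. They measure no spread between replicates of a clone. The remaining libraries, 4.72-44a (WT/WT) and 3.11-44b (WT/C134W), have titles that join 2 clone names and entered no test.

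FOXL2 is a forkhead transcription factor that specifies and maintains granulosa cells, and C134W is the recurrent somatic change of adult-type granulosa cell tumours. A clone grown from 1 cell carries forward that cell's expression state, including which genes are on and which are silent.

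Expression was measured as RSEM's estimated counts per gene, with library totals from 38288177 to 46613068 in the 4 libraries used, and levels are given as CPM (counts scaled to library size by edgeR's TMM method over all 6 libraries). A level of 3 counts, the limit that a count of 0 allows, equals 0.0662 to 0.0784 CPM depending on the library, and covers counting error only. FOXL2 mRNA stood at 7.4 CPM in 44a, 10.1 in 44b, 4.84 in 4.72 and 9.3 in 3.11. These values overlap between the sides, and the log2 difference was 0.37 ± 0.34 (SE, n = 2 against 2, edgeR adjusted p = 1), although an mRNA level does not show which allele is present. Of 23 granulosa cell markers, AMHR2, FSHR, GATA4, NR0B1 and WT1 had at most 3 counts in each of the 4 libraries. The summed granulosa marker level was 645 CPM in 44a, 494 in 44b, 616 in 4.72 and 374 in 3.11. Of 16 leukocyte markers 12 had at most 3 counts in each of the 4 libraries, among them CD3E, CD14, LYZ and SPI1, and the summed leukocyte level lay between 87.2 and 99.9 CPM. The endothelial genes CDH5, ERG and FLT1 also had at most 3 counts in each of the 4.

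Some genes called higher in the 44 clones were detected in 44a and 44b and at or near 0 in 4.72 and 3.11, and others were expressed in all 4 and differed in level. Genes at or near 0 in 4.72 and 3.11 included TIMP3, an inhibitor of matrix metalloproteinases, IGF2BP1, an RNA-binding protein of fetal tissue and tumours, EMB, a membrane glycoprotein of the immunoglobulin superfamily, and the cell adhesion molecule L1CAM. Fewer genes were lower in the 44 clones, among them CHRDL1, a secreted antagonist of bone morphogenetic proteins (BMPs), and the secreted Wnt modulator SFRP1. edgeR's quasi-likelihood test with terms for clone pair and genotype called 38 of 16416 genes at a Benjamini-Hochberg adjusted p under 0.05, or 0.231% of those tested. Of these, 31 were higher (0.189%) and 7 lower (0.0426%) in the 44 clones. In the same fit 5 genes (0.0305%) were called between the genotypes. This does not order the 2 contrasts, since DESeq2 called 297 between genotypes and 249 between clone pairs. Of the 38, 2 were called in both contrasts, TIMP3 and ATP10A, each with its genotype difference between 44a and 44b alone. An unadjusted p under 0.05 was reached by 5.43% of genes for the clone pairs and by 7.74% for the genotypes, against 5% that the threshold alone would give. In bulk RNA, fewer cells with a gene on and less RNA per cell cannot be told apart. The calls rest on the genotype term: without it 1 gene, IGF2BP1, was called. Of the 249 genes that DESeq2 called between clone pairs, 25 were among the 38, and limma voom called 14 with 8 of them.

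The genes called by all 3 tools were CADM4, CHRDL1, CHST15, FBN2, FIBCD1, SFRP1, SLIT2 and TES. Each of the 8 was detected in all 4 libraries. In contrast, none of the 12 called genes with 0 counts in both 4.72 and 3.11 passed in DESeq2 (0 of 12) or limma voom (0 of 12). The edgeR p-values of these 12 rest on the shared spread alone, as does that of ATP6V1G2-DDX39B, with 0 counts in 44a and 44b. The 38 called genes were at least 2-fold apart in the same direction inside each genotype, which the test selects for and which is no support for the calls. In 37 the 2 sides did not overlap, where over all genes tested 15.5% had both 44 clones above both others and 15% had both below. SCN3A, a neuronal sodium channel subunit, was the exception, because its level in 3.11 was 32.4 CPM against 5.01 in 4.72, with 0.709 in 44a and 6.29 in 44b.

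The clone difference can be read in 2 pairs that share no library, as 44a over 4.72 in WT/WT cells and as 44b over 3.11 in WT/C134W cells. Over the 16416 genes tested the log2 differences of the pairs had a Pearson r of 0.24 and a Spearman rho of 0.0901, given as a description across genes, which are not independent replicates. A difference of at least 4-fold was seen for 1375 genes in the WT/WT pair and for 1490 in the WT/C134W pair, and 626 genes reached it in both. Of these 626, 265 were higher in both 44 clones, 163 were lower in both and 198 went opposite ways. Over the 9383 genes with at least 10 CPM in at least 2 libraries, 31 reached 4-fold in both pairs, with 21 higher, 7 lower and 3 opposite. The opposite genes were COL15A1, SLX1B, which has a near-identical copy and is uncertain, and ACTC1. COL15A1, a basement membrane collagen, had 202 CPM in 44a and 1.68 in 4.72, but 3.73 in 44b and 16.7 in 3.11. Genes at least 2-fold higher in the 44 clone inside both genotypes numbered 582 (3.55%), and those at least 2-fold lower 456 (2.78%).

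**Figure D1:**
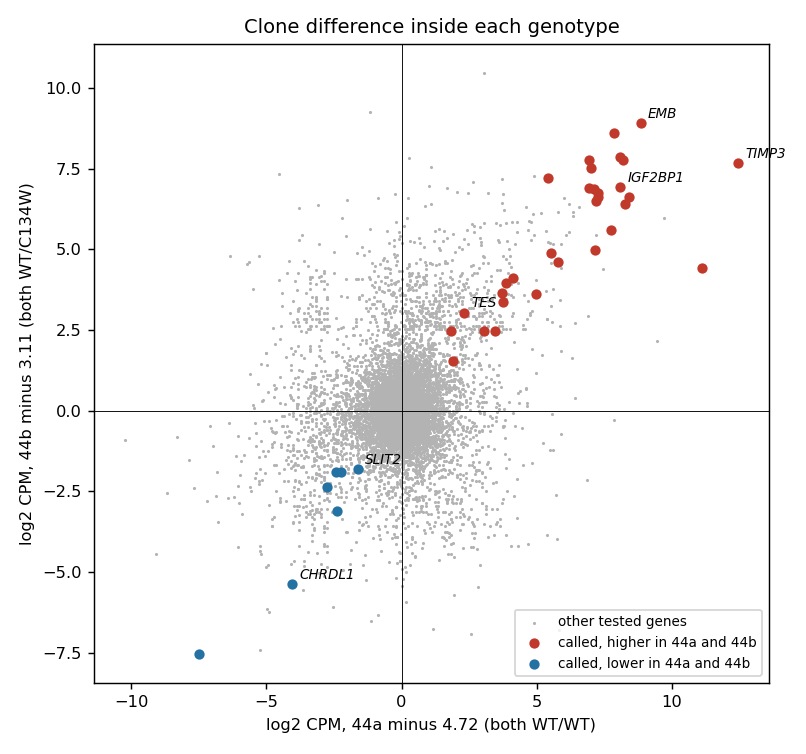
Log2 CPM difference of 44a minus 4.72 (horizontal, both WT/WT) against 44b minus 3.11 (vertical, both WT/C134W) for the 16416 genes tested, each point 1 gene, with the 31 genes called higher in red and the 7 called lower in blue. The called genes lie along the diagonal, while most other genes form a cloud around 0 with a Pearson r of 0.24 over all points.

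The promoters of 3 of these genes are shown, because TIMP3 and ANOS1 were silent in one clone pair and on in the other, and CHRDL1 showed the reverse direction at a high level. Each is the stretch of 250 bases before the start in RefSeq (GRCh38.p14), 5′ to 3′ on the gene's own strand, with every CG dinucleotide in capitals. They lie at chr22:32801455-32801704 (TIMP3, plus strand), chrX:8732138-8732387 (ANOS1, minus strand) and chrX:110795818-110796067 (CHRDL1, minus strand).
TIMP3: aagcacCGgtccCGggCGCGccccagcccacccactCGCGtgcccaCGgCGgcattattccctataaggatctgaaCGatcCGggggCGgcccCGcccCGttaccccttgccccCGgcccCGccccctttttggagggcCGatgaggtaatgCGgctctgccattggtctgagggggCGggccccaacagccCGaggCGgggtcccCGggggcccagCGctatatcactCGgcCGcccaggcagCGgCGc
ANOS1: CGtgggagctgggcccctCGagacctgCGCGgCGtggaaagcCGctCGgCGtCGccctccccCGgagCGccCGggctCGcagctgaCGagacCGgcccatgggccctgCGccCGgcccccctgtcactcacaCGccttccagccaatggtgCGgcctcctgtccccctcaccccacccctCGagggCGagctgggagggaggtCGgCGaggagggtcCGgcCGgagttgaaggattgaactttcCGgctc
CHRDL1: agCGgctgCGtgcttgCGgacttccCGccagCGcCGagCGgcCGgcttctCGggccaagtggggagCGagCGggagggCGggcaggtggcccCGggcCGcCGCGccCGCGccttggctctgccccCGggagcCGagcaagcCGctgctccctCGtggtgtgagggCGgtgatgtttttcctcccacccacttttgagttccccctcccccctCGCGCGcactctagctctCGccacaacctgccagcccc
The stretches held 26, 26 and 27 CG dinucleotides in that order, and 19.6%, 19.6% and 17.7% of all 35116 stretches in the RefSeq table held as many or more. Whether CG content goes with the clone difference was not compared, since only 78.7% of the protein-coding genes tested had an entry in the table. DNA methylation was not measured.

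Of the 31 genes called higher in the 44 clones, 12 had no count in either 4.72 or 3.11, and 15 had at most 3 counts in each. TIMP3 (chr22:32801701-32863043 in GENCODE, GRCh38) had 263 CPM in 44a, 9.37 in 44b and 0 in 4.72 and 3.11. Its mean of 136 ± 179 CPM (SD, n = 2) was at least 1861-fold above the limit of 3 counts per library (edgeR adjusted p = 0.00286). The 44 clones themselves lay far apart, and TIMP3 was also called between the genotypes (edgeR adjusted p = 0.0367), with the lower level in 44b. With 0 in 4.72 and 3.11, that genotype difference lies between 44a and 44b alone. Genotype and clone cannot be told apart there. ATP10A, a phospholipid flippase subunit, had the same shape, with 105 CPM in 44a, 0.948 in 44b and 0 in both others. ATP10A was the only gene of the 31 below 1 CPM in a 44 clone. It was called between the genotypes as well (edgeR adjusted p = 0.0358), again from 44a and 44b alone.

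EMB, which encodes embigin, was at a similar level in both 44 clones. It had 21.6 CPM in 44a, 22.3 in 44b and 0 in 4.72 and 3.11, at least 300-fold apart (edgeR adjusted p = 0.00556). ANOS1, the secreted anosmin-1 that is mutated in X-linked Kallmann syndrome, had 10.8 CPM in 44a, 18.1 in 44b and 0 in both others. SERPINA5, the protein C inhibitor, had 16.1 CPM in 44a and 4.54 in 44b, and the calcium sensor VSNL1 had 14.2 and 3.86, with 0 in both others for each gene. All 4 were on in both 44 clones and undetected in the others. Further genes of this kind were present at lower levels. HTATIP2 had 7.15 CPM in 44a and 4.54 in 44b, MAGEE1 of the MAGE family had 6.86 and 4.19, and FAM83H, a keratin-associated protein, had 5.63 and 5.54. CACNA1C, the pore subunit of an L-type calcium channel, had 10.1 and 2.21 CPM but overlaps DCP1B (10.4 CPM on average) on the opposite strand. TP73-AS1 had 5.95 CPM in 44a and 8.51 in 44b. All of these had 0 counts in 4.72 and 3.11, and their lower bounds ran from 75.5-fold for MAGEE1 to 98.8-fold for TP73-AS1. EYA2, a developmental phosphatase and transcriptional coactivator, had 21 CPM in 44a, 10.1 in 44b, 0.0247 in 4.72, which is 1 count, and 0 in 3.11.

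For other genes called higher, at least 1 of 4.72 and 3.11 had more than 3 counts. IGF2BP1 (chr17:48997412-49055650) had 39.6 CPM in 44a, 28.9 in 44b, 0.0987 in 4.72 and 0.193 in 3.11. This was a ratio of means of 235, with a log2 difference of 7.82 ± 0.43 (SE, n = 2 against 2, edgeR adjusted p = 0.0043). It was the only called gene that kept its call without the genotype term (adjusted p = 0.0481). L1CAM had 22.9 CPM in 44a, 28.6 in 44b, 0.494 in 4.72 and 0.145 in 3.11. POSTN, the matricellular protein periostin, had 51.4 and 10.1 CPM in the 44 clones, 0.37 in 4.72 and 0 in 3.11. CGREF1, a secreted EF-hand protein, had 31.2 and 10.6 CPM against 0.163 and 0.281. MIAT, a long noncoding RNA, had 21.9 and 13.7 CPM against 1.46 and 0.851. For each of these genes both 44 clones lay above both others.

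Other called genes, outside the naming rule, are given by their values. LAYN, a hyaluronan receptor, had 19.3 CPM in 44a, 10.9 in 44b, 0.0247 in 4.72, which is 1 count, and 0 in 3.11. PAMR1, a secreted protein with a peptidase-like domain, had 13.9 and 20.1 CPM in the 44 clones against 0.74 and 1.11. PID1, an adaptor of lipoprotein receptor signalling, had 21.8 and 6.44 CPM against 0.346 and 0.217. Each was close to silent or low in both others. TBX3, a T-box transcription factor of limb and mammary development, had 25.8 and 16.7 CPM against 3.04 and 2.97. ALDH1A3, an enzyme of retinoic acid synthesis, had 10.7 and 9.74 CPM against 0.738 and 0.893, and TNNT1, the troponin T of slow skeletal muscle, had 6.65 and 7.12 against 0.0987 and 0.193.

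TES, a LIM-domain protein of focal adhesions, was among the most abundant of the genes called higher, with 114 CPM in 44a, 98.1 in 44b, 22.7 in 4.72 and 12 in 3.11 (log2 difference 2.67 ± 0.25 SE, edgeR adjusted p = 0.018). FIBCD1, a transmembrane acetyl-group receptor, had 123 and 72.6 CPM in the 44 clones and 32.6 and 25.1 in the others. CADM4, a cell adhesion molecule of the immunoglobulin superfamily, had 59.3 and 62 CPM against 16.7 and 11.2. CHST15, a sulfotransferase of chondroitin sulfate, had 35.4 and 25 CPM against 2.67 and 1.93, and is described because all 3 tools called it, a choice made after its values were seen. These 4 genes were expressed in each clone and differed in level only.

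**Figure D2:**
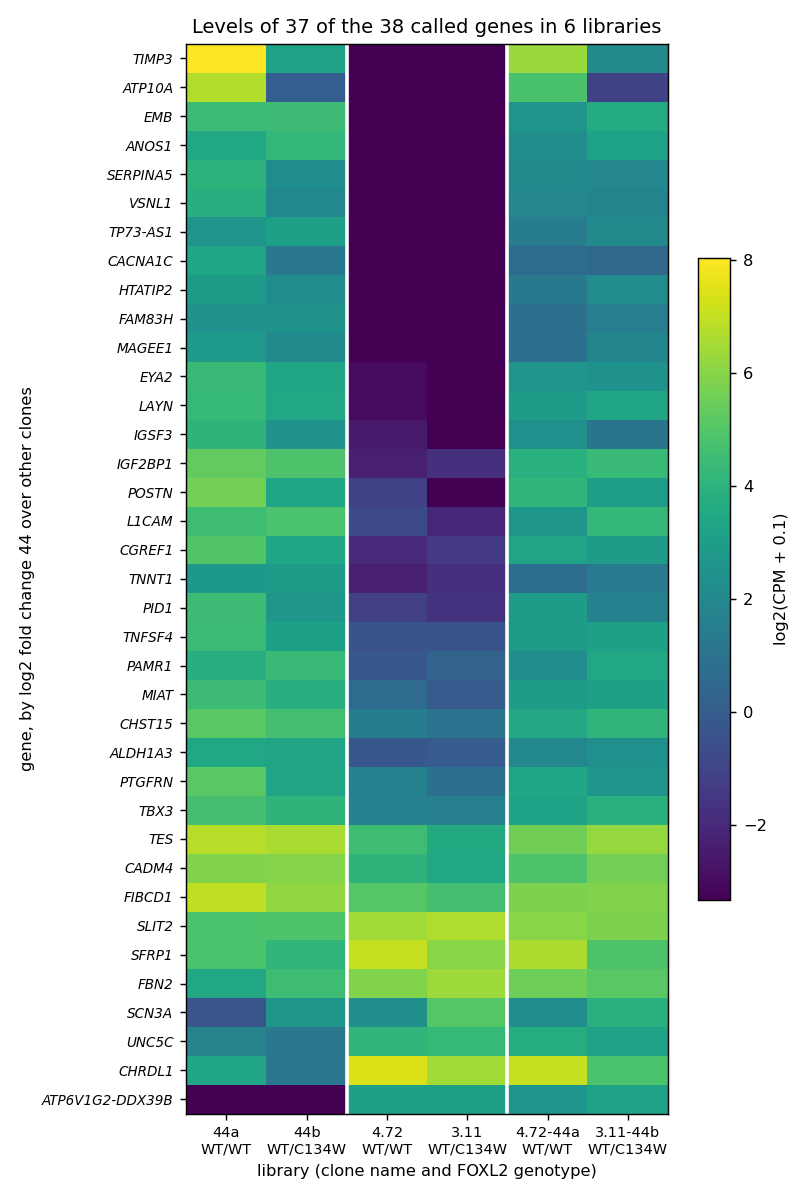
Log2(CPM + 0.1) of 37 of the 38 called genes (rows, ordered by log2 fold change) in the 4 single-clone libraries and the 2 joined libraries (columns), on a colour scale from dark (not detected) to yellow. The 11 uppermost genes have 0 counts in 4.72 and 3.11, the 7 lowest genes are lower in 44a and 44b, and the joined libraries take intermediate colours for most genes.

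The 7 genes called lower in the 44 clones were, with 1 exception, expressed on both sides. CHRDL1 had 10.3 CPM in 44a, 2.1 in 44b, 173 in 4.72 and 88.8 in 3.11 (log2 difference -4.70 ± 0.40 SE, edgeR adjusted p = 0.0376). SFRP1 had 28 CPM in 44a, 17.6 in 44b, 133 in 4.72 and 65.7 in 3.11. SLIT2, a secreted guidance cue, had 28.4 and 29.7 CPM in the 44 clones against 87.5 and 104. UNC5C, a netrin receptor, was lower as well, with 3.3 and 2.21 CPM against 17.6 and 19.4. FBN2, a fibrillin of elastic microfibrils, had 10.8 and 22.4 CPM against 58.7 and 83.6. None of these 5 overlapped between the sides. The exception on level was ATP6V1G2-DDX39B, a readthrough transcript, with 0 counts in 44a and 44b, 8.35 CPM in 4.72 and 8.6 in 3.11. It shares its sequence with DDX39B (244 CPM on average), so its count is uncertain.

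Other genes were lower in both 44 clones without passing the test, and the 6 with the smallest p under the naming rule are given as values. CSF1, the macrophage growth factor, had 86.4 and 68.2 CPM in the 44 clones and 227 and 182 in the others (edgeR adjusted p = 0.0664). PTGIS, the prostacyclin synthase, had 0 CPM in 44a, 0.0662 in 44b, 1.33 in 4.72 and 8.43 in 3.11 (adjusted p = 0.0543). The matricellular gene WISP1 had 0.339 and 0.728 CPM against 3.33 and 16.3, and NMRAL1, an NADPH sensor, had 1.43 and 5.65 against 13.5 and 25.2. SNAP25, a synaptic vesicle fusion protein, had 8.37 and 4.57 CPM against 25.2 and 19.5. AC011462.1 had 0 in both 44 clones, 1.71 CPM in 4.72 and 7.92 in 3.11, and overlaps TGFB1 (276 CPM on average) on the opposite strand.

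To count genes that were on in one side and silent in the other without a model, a gene was taken as on at 1 CPM or more and as off at 3 counts or fewer, a definition set after the values had been seen. By it 37 genes were on in both 44 clones and off in both others, and 6 showed the reverse. The same 4 libraries split by genotype gave 2 genes on in both WT/WT and off in both WT/C134W clones, and 3 the other way. Single clones had more: 20 genes were on in 44a alone, 11 in 44b alone, 11 in 4.72 alone and 23 in 3.11 alone, and 32, 6, 7 and 29 genes were off in that clone alone. With on set at 5 CPM, the counts for the clone pairs were 8 and 1, and those for the genotypes 0 and 0.

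The 37 genes lay on 17 chromosomes, and 29 were protein-coding. Besides the called genes above they held zinc-finger genes at 1 to 5 CPM in the 44 clones, such as ZNF677 (2.96 CPM in 44a, 4.43 in 44b), ZIK1 (3.15 and 1.99), ZNF141 (3.33 and 3.24) and ZNF10 (2.1 and 1.99), none of them called. TP73, a p53 family member, had 1.15 CPM in 44a and 2.23 in 44b and 0 in both others, as did its neighbour TP73-AS1 at the levels given above. MAGEC1, a cancer-testis antigen on the X chromosome, had 3.73 and 3.26 CPM in the 44 clones and 0 in both others (edgeR adjusted p = 0.082). MAGEA3, from the same X-linked family, had the reverse pattern at a low level, with 0 in both 44 clones, 0.527 CPM in 4.72 and 1.13 in 3.11. These genes were named after their values were seen, apart from the MAGE genes, which came from the cancer-testis list. Of the 6 genes with the reverse pattern, KRT19, a simple-epithelial keratin, had 0 and 0.0441 CPM in the 44 clones against 1.41 and 2.46.

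**Figure D3:**
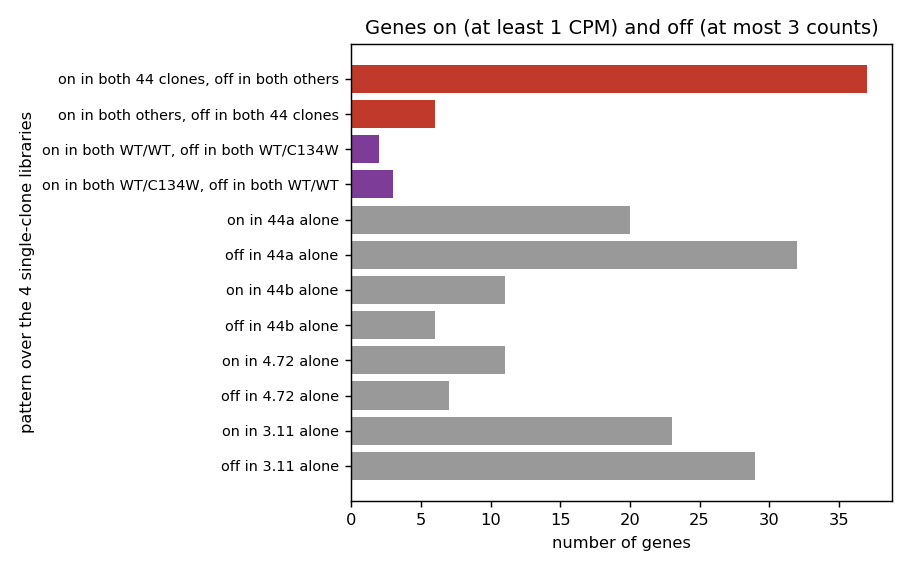
Number of genes (horizontal) with each on and off pattern over the 4 single-clone libraries, with the clone pair patterns in red, the genotype patterns in purple and single-clone patterns in grey. The pattern on in both 44 clones and off in both others is the longest bar with 37 genes, while the genotype patterns hold 2 and 3.

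Position along the genome showed no block of called genes. Chromosome medians of the log2 difference ran from -0.04 to 0.04, beside -0.01 over all genes tested. IGSF3 and PTGFRN on chromosome 1, 2 immunoglobulin superfamily genes whose annotated ends are 242302 bases apart, were the only called genes within 1 Mb of each other. IGSF3 had 16.7 CPM in 44a, 5.36 in 44b, 0.074 in 4.72 and 0 in 3.11, and PTGFRN had 35.1, 9.73, 3.13 and 1.71 in the same order. Among windows of 10 Mb the lowest medians were -0.64 for the first of chromosome 21, -0.44 for 160000001 to 170000000 of chromosome 6 and -0.40 for 80000001 to 90000000 of chromosome 12. In each of the 3 the WT/C134W pair showed the larger difference, with -0.64, -0.40 and -0.48 there against -0.04, -0.22 and 0.16 in the WT/WT pair. The highest medians were 0.26 for 50000001 to 60000000 of chromosome 22, 0.21 for 10000001 to 20000000 of chromosome 5 and 0.21 for 30000001 to 40000000 of chromosome 12, and none of the 6 windows held a called gene.

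The 5 genes that had marked these clone pairs in earlier results of the same data differed in how firmly they stood. IGF2BP1 and CHRDL1 were called. KRT14, a basal epithelial keratin, had 100 CPM in 44a, 48.6 in 44b, 0.516 in 4.72 and 2.27 in 3.11, and did not pass (log2 difference 5.81 ± 1.14 SE, edgeR adjusted p = 0.665). CD74, the HLA class II invariant chain, had 2.67 and 8.18 CPM in the 44 clones and 107 and 39.3 in the others, and did not pass either (adjusted p = 0.93). DSG2, a desmosomal cadherin, had 63.1 and 65.7 CPM in the 44 clones, 7.53 in 4.72 and 0 in 3.11 (adjusted p = 1). All 3 had sides that did not overlap, which their choice as markers from these data favours and which is no support. Over all genes tested, 15.5% had both 44 clones above both others and 15% had both below. The clone difference of KRT14, CD74 and DSG2 was much unlike in size in the 2 genotypes. For DSG2 it was 3.06 in the WT/WT pair and 10.46 in the WT/C134W pair on the log2 scale. That alone did not set the 3 apart from called genes. TIMP3 (12.46 and 7.66) and ATP10A (11.13 and 4.41) were called, with 0 counts in 4.72 and 3.11.

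Gene groups were read as lists, 29 in all, and 5 of these held a called gene with 1 each. The lists were written with earlier results of these data known, and the markers KRT14, DSG2 and CD74 are members. Shares of a list set beside those of all genes are therefore description only and no support for a group difference. Keratins, the filaments of epithelial cells, had 13 of 17 members tested, 0 called, 9 above 0 and a median log2 difference of 0.23 beside -0.01 for all genes. Of the 13, 5 were at least 2-fold higher in the 44 clone inside both genotypes and 1 was lower, beside 3.55% and 2.78% of all genes tested. KRT7 had 73.8 and 48.7 CPM in the 44 clones and 28.5 and 18.1 in the others (edgeR adjusted p = 0.0717). KRT34 had 7.33 and 7.1 CPM against 0.839 and 0.821, and KRT16 had 5.72 and 1.64 against 0.0518 and 0. The 1 lower was KRT19, given above. KRT18, named after its values were seen, had 980 CPM in 44a, 1171 in 44b, 1420 in 4.72 and 318 in 3.11, opposite ways in the 2 genotypes. The summed keratin level did not separate the sides, with 1751 CPM in 44a, 2669 in 44b, 1857 in 4.72 and 637 in 3.11. Desmosome and epithelial junction genes had 20 of 34 tested, 0 called, 14 above 0 and a median of 0.57, with 6 at least 2-fold higher in both genotypes and 1 lower, beside the same 3.55% and 2.78%. PERP, a desmosomal membrane protein, had 55.9 and 73.3 CPM against 21.7 and 33.8. The junction proteins JUP (10.6 and 9.42 CPM against 2 and 2.34) and PKP2 (63.6 and 45.9 against 32.7 and 15.9) and the connexin GJB2 (1.67 and 2.78 against 0.173 and 0.217) also did not overlap. Both 44 clones lay above both others for 9 of the 20, beside 15.5% of all genes tested. They lay below both others for 0 of the 20, beside 15%. The summed junction level was 1859 CPM in 44a and 1552 in 44b, above 1034 in 4.72 and 786 in 3.11. Most of that gap came from DSP, the desmosomal plaque protein desmoplakin, named after its values were seen, with 990 CPM in 44a, 712 in 44b, 478 in 4.72 and 105 in 3.11 (edgeR adjusted p = 0.568). The epithelial regulators ESRP1 and GRHL2 had at most 3 counts in each of the 4 libraries.

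The HLA class II pathway list covers chains that present peptides to helper T cells and other genes of the pathway, such as CD74. It had 14 of 19 members tested and 0 called, with 12 below 0 and a median of -1.69. Of these 14, 5 were at least 2-fold lower in the 44 clone inside both genotypes, beside 2.78% of all genes. CD74, a marker from earlier results of these data, is 1 of the 5. Both 44 clones lay below both others for 9 of the 14, beside 15% of all genes. HLA-DMA, a peptide loading chain, had 1.24 and 2.29 CPM in the 44 clones against 12 and 5.26 (edgeR adjusted p = 0.489), but overlaps BRD2 (187 CPM) on the opposite strand. HLA-DRB1 had 0.294 and 0.132 CPM against 2.95 and 1.45, HLA-DRA 0.86 and 0.816 against 9.03 and 1.59, and HLA-DMB 0 and 0 against 1.23 and 0.435. Reads of HLA-DRB1 can be shared with its close copies, so its count is uncertain. The HLA class I pathway list, by contrast in level, had a summed 5541 to 6799 CPM in the 4 libraries. It had 0 of 16 called and a median of -0.10. Interferon-stimulated genes had 0 of 24 called and a median of -0.21.

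Clustered protocadherins, adhesion genes of which single cells express random subsets, had 33 of 48 members tested, 0 called, 22 above 0 and a median of 0.69, with 7 at least 2-fold higher in both genotypes, beside 3.55% of all genes. PCDHB14 had 17.9 and 10.9 CPM against 5.33 and 2.22, PCDHB10 18.4 and 13.8 against 5.48 and 1.41, and PCDHB13 7.44 and 13 against 2.78 and 2.2. PCDHGA10 had 49.5 and 31.3 CPM against 19.1 and 12.2 (edgeR adjusted p = 0.094). These genes share sequence with their neighbours, so their counts are uncertain. Of the other cadherins and protocadherins, L1CAM, which was put on this list as an adhesion gene, was the 1 called of 10 tested and the median was -0.38. PCDH10 had 4.12 and 6.75 CPM against 67.2 and 22.1, and CDH13 117 and 163 against 263 and 193. HOX genes, which encode positional identity, had 33 gene IDs tested for 38 listed genes, 0 called, 24 above 0, 9 below and a median of 0.22. HOXC5 entered under separate IDs that went opposite ways. These had 3.86 and 1.11 CPM against 1.09 and 0.496, and 0.218 and 0.0653 against 0.651 and 1.17. Of the IDs tested, 9 were at least 2-fold higher in both genotypes and 1 was lower, beside 3.55% and 2.78% of all genes. HOXB9 had 2.78 and 0.948 CPM against 0 in both others, HOXB13 2.31 and 2.21 against 0.148 and 0.241, and HOXB7 33.4 and 26.1 against 10.2 and 16.1. HOXD13, named after its values were seen, went the other way, with 1.79 and 2.65 CPM against 4.07 and 4.35.

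**Figure D4:**
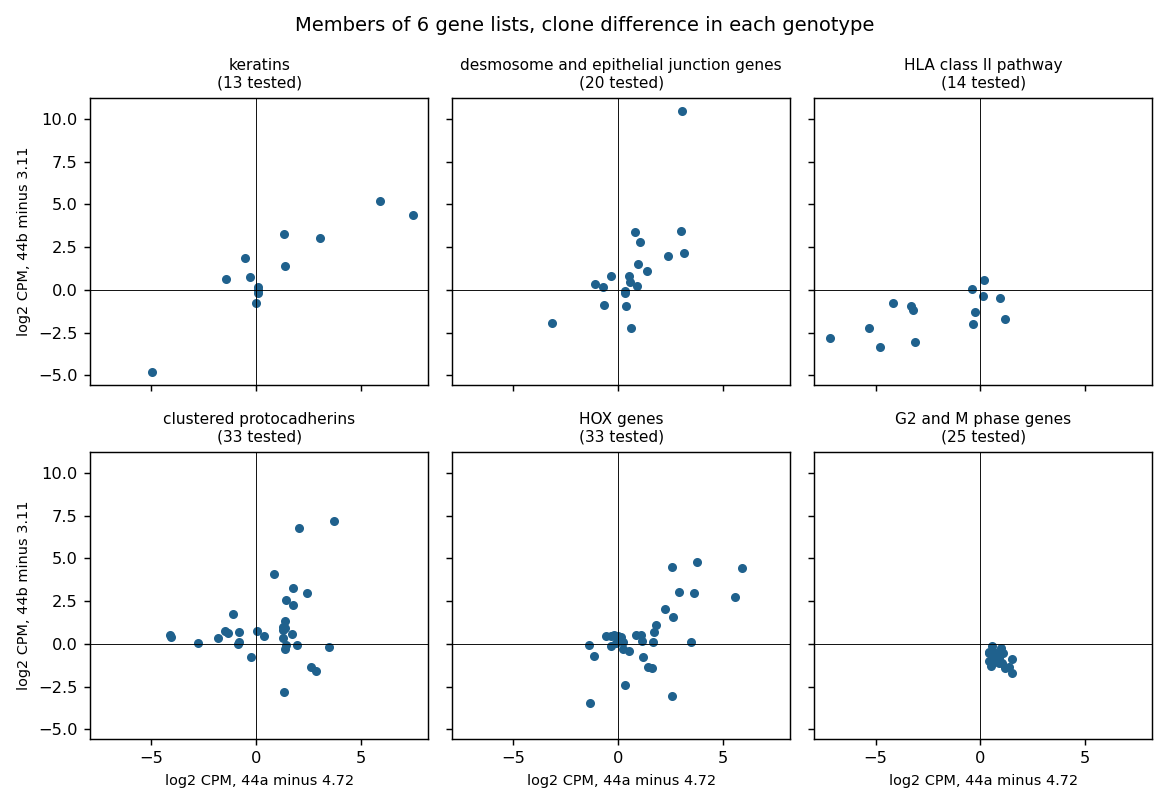
Log2 CPM difference of 44a minus 4.72 (horizontal) and 44b minus 3.11 (vertical) for the tested members of 6 gene lists, each point 1 gene ID. Several keratins, junction genes, protocadherins and HOX genes lie in the upper right, and HLA class II pathway genes lie mostly to the lower left. The 25 G2 and M phase genes all lie in the lower right, where the 2 genotypes go opposite ways.

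Of the Wnt list, which covers ligands, receptors and antagonists, 34 of 44 were tested, 1 was called (SFRP1) and the median was -0.07. SFRP2 was on the same side as SFRP1, with 1.43 and 2.51 CPM in the 44 clones against 8.81 and 7.51, while SFRP4, from the same family, had 51.1 and 16.3 against 11 and 5.31 (edgeR adjusted p = 0.0629) and overlaps EPDR1 (125 CPM) on the opposite strand. The ligand WNT5A had 116 and 100 CPM against 69.7 and 59.1. Of the BMP list 25 of 32 were tested, 1 was called (CHRDL1) and the median was 0.00. The activin antagonist FSTL3 had 446 and 258 CPM against 171 and 39.8, and the BMP antagonist NOG had 12.3 and 13.6 against 7.53 and 3.04, so these antagonists stood on the side opposite to CHRDL1. TGF-beta response genes had 0 of 18 called and a median of 0.23, with PMEPA1 at 150 and 77.6 CPM against 44.4 and 34.7 (edgeR adjusted p = 0.0873). The growth factor list had 0 of 40 called and a median of -0.07.

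Matrix and mesenchymal genes were high on both sides. Of the fibroblast and smooth muscle list 14 of 16 were tested, 1 was called (POSTN) and the median was 0.04, with summed levels of 46365 CPM in 44a, 19947 in 44b, 44422 in 4.72 and 19849 in 3.11. That sum was higher in the WT/WT than in the WT/C134W libraries and did not separate the clone pairs. A sum weighs its most abundant genes, and COL1A1, named after its values were seen, had 25181 CPM in 44a, 9847 in 44b, 20844 in 4.72 and 10717 in 3.11. The small proteoglycan DCN had 78.3 and 21.6 CPM in the 44 clones against 15.3 and 6.98 (edgeR adjusted p = 0.0543), and LUM had 10.7 and 1.65 against 1.78 and 0.0966. Collagens had 0 of 18 called and a median of 0.10, and COL18A1 had 123 and 69.8 CPM against 69.1 and 21.7.

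Of the remaining lists, p53 targets had 0 of 25 called, 20 above 0, 5 below and a median of 0.20. Of the 25, 3 were at least 2-fold higher in the 44 clone inside both genotypes, beside 3.55% of all genes. These were SPATA18 (4.37 and 12.9 CPM against 0.469 and 2.32), PLK2 (260 and 219 against 127 and 89.4) and GDF15 (4.66 and 8.21 against 1.53 and 3.82). Other targets, named after their values were seen, went opposite ways in the genotypes. CDKN1A had 171 CPM in 44a, 559 in 44b and 241 in both others, and PHLDA3 had 40.1 and 91 against 74.1 and 53. Granulosa markers had 0 of 16 called and a median of 0.41. FOXO1 had 8.69 and 3.71 CPM against 0.889 and 1.38, HSD17B1, an enzyme of estradiol synthesis, 4.4 and 4.69 against 2.44 and 1.34, and KITLG, the ligand of KIT, 21.5 and 36 against 36.3 and 49. Steroid synthesis genes had 0 of 11 called and a median of -0.06, with AKR1C1 at 0.588 and 2.18 CPM against 2.94 and 14.1. The oncofetal list had 1 of 7 called (IGF2BP1) with a median of -0.02, so no other tested member of it passed. Imprinted genes had 0 of 19 called (median -0.08), S phase genes 0 of 24 (0.04), G2 and M phase genes 0 of 25 (-0.05), ribosomal protein genes 0 of 30 (0.12) and mitochondrially encoded genes 0 of 13 (0.27). Cancer-testis genes had 0 of 4 called (1.17), Sertoli markers 0 of 3 (0.62), leukocyte markers 0 of 4 (-0.27), endothelial markers 0 of 5 (-0.76), germ cell markers 0 of 3 (-0.08) and neuronal markers 0 of 8 (-0.39).

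The joined libraries entered no test, and the called genes are described in them. These genes, like the on and off genes, were selected for a gap between the clones that set the ends of the scale. A place between those clones is therefore no support for the calls, and the share over all genes tested is not given. In 4.72-44a the level lay between 4.72 and 44a for 38 of the 38 genes, at a median of 29% of the way from 4.72 to 44a on the linear CPM scale (quartiles 26.5% and 31.6%). In 3.11-44b it lay between 3.11 and 44b for 36 of the 38, at a median of 66.8% of the way to 44b (quartiles 52.5% and 78.4%). The exceptions were ATP6V1G2-DDX39B, at 9.13 CPM beside 8.6 in 3.11, and TNFSF4, a TNF family ligand, at 8.7 CPM beside 8.4 in 44b. EMB, which had 0 counts in 4.72 and 3.11, stood at 5.97 CPM in 4.72-44a and 12.8 in 3.11-44b. CHRDL1 stood at 131 and 27.9 CPM. The 37 on and off genes lay at medians of 30.4% and 64%. The labels do not say how the joined libraries were made.

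**Figure D5:**
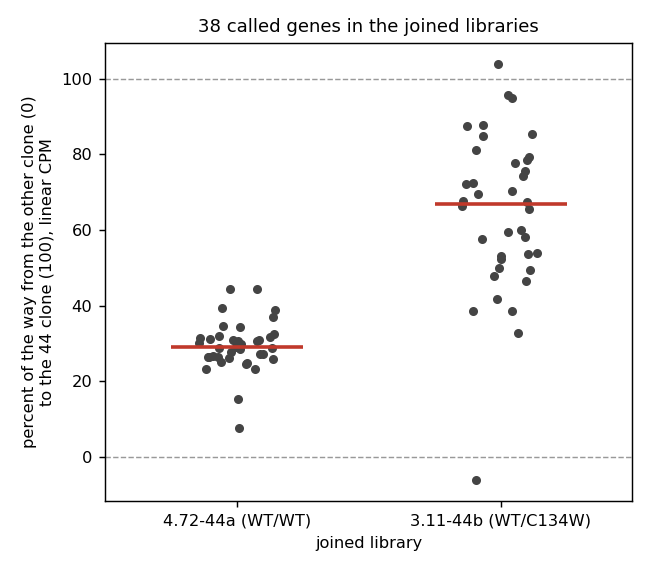
Place of each of the 38 called genes in the 2 joined libraries, in percent of the way from the other clone (0) to the 44 clone (100) on the linear CPM scale, with each point 1 gene and the red line the median. The points of 4.72-44a gather around 29% and those of 3.11-44b spread more widely around 66.8%, with 2 genes outside the dashed lines.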

How the data were processed

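Gene-level RNA-seq tables of 6 KGN libraries were used, made with a stranded mRNA kit per the labels' protocols. The expected count, RSEM's estimate of reads per gene, was deposited by the authors per the file headers with decimals, and was rounded to whole numbers. TPM, scaled to gene length and library by the authors per the file headers, served only in alternatives. FPKM was deposited by the authors and not used. Per the submitters' processing notes, DESeq2 1.26.0, R 3.6.3, RSEM 1.3.1, Picard 2.8.1 and STAR 2.7.6a are named, with no roles stated. Those notes list the mouse build GRCm38, although the gene IDs are human. Strand handling, annotation and human build were not given in the sources used here, so genes that overlap are uncertain. Symbols and coordinates (GRCh38) came from GENCODE release 29, which held 58216 of 58336 IDs.

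Genes kept by filterByExpr were scaled by TMM, then tested in edgeR 4.0.16 (robust glmQLFit and glmQLFTest) in R 4.3.3, with genotype and clone pair as terms, 1 residual degree of freedom and a Benjamini-Hochberg adjusted p under 0.05. Spread is shared across genes (prior degrees of freedom 5.77). Every log2 difference is 44 clones over other clones, and its SE is its size over the square root of F. Log2 differences inside a genotype used a prior count of 2. Alternatives used DESeq2 1.42.0, limma 3.58.1, other scaling, filters, thresholds and TPM, and each library left out.

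The members and the 29 lists were chosen with earlier results of these data known. Genes were named by rule: FOXL2, the 5 markers, the 12 largest called changes in each direction among protein-coding genes averaging 2 CPM or more without overlap (filled by smallest p), the 6 most abundant of these, the 3 largest long noncoding RNA changes, and up to 4 members of each list by smallest p. Of the 141 genes so named, 76 are described, and members of lists given by counts alone were left out after their values were seen. Called genes outside the rule are named as called genes. A called gene is counted but not reported here.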

Additional observations from a re-analysis of the deposited data

Results flagged for a closer look

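Some results went one way in the WT/WT pair (44a against 4.72) and the opposite way in the WT/C134W pair (44b against 3.11). With 1 library per clone and genotype this difference was not tested, and any 2 small differences of opposite sign meet the criterion.

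G2 and M phase genes had a median log2 difference of 0.78 in the WT/WT pair and -0.89 in the WT/C134W pair, and 25 of 25 members were higher in 44a than in 4.72 and lower in 44b than in 3.11. CCNB2, cyclin B2 of that list, differed by 0.51 and -1.30, with 29.6 CPM in 44a, 20.8 in 4.72, 35.4 in 44b and 87.5 in 3.11. KIT, a receptor kinase, differed by -1.83 and 0.89 at levels of 0.193 to 2.05 CPM. COL15A1 differed by 6.87 and -2.15, SLX1B by 2.30 and -3.25, and ACTC1, cardiac actin, by -2.98 and 4.02. Germ cell markers, with 3 genes tested, had medians of -0.03 and 0.89.

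The other lists that met the criterion had smaller medians in the WT/WT and the WT/C134W pair. These were 0.15 and -0.19 for oncofetal genes, -0.28 and 0.04 for the BMP list, and -0.13 and 0.01 for imprinted genes. They were 0.13 and -0.10 for steroid synthesis, 0.24 and -0.11 for fibroblast and smooth muscle markers, and 0.12 and -0.05 for S phase genes. They were 0.01 and -0.08 for the Wnt list, -0.14 and 0.28 for growth factors, and -0.08 and 0.32 for ribosomal protein genes.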

How the results depend on the processing

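The genotype term pairs 44a with 4.72 and 44b with 3.11, and the labels give no replicate numbers. In place of 38 genes, the count was 1 without the genotype term, 249 in DESeq2, 14 in limma voom, 66 with library totals alone, 258 without a low-count filter, 15 on log2(TPM + 1), 6 on log2(TPM + 0.1), 7 at a threshold of 0.01 and 19 against a 2-fold change. On log2(TPM + 1) without a filter limma called 0 genes, with 1190 at an unadjusted p under 0.05. Leaving out 1 library, which also drops the genotype term, gave 0 to 4 calls by edgeR: 0 without 44a (480 genes at an unadjusted p under 0.05), 4 without 44b, 1 without 4.72 and 0 without 3.11 (927 genes). The lone library of a side is then assumed to vary like the pair. The 38 genes kept their direction under each setting that tested them. Median-ratio size factors (50 genes) and a filter of 10 CPM (43) stayed within 1.5 times.

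Between genotypes, in place of 5 genes, the count was 297 in DESeq2, 12 in limma voom, 8 with library totals, 247 without a filter, 17 with the 10 CPM filter, 3 on log2(TPM + 1) and 0 on log2(TPM + 1) without a filter. The Pearson r of the pairs was 0.323 with the 10 CPM filter, where Spearman's rho was -0.0254. With on set at 5 CPM, chosen after seeing the data, 8 and 1 genes met the definition in place of 37 and 6. Signs turned, for genes not called, in SLX1B without the genotype term (0.48) and in limma voom (0.50), and in ACTC1 (-0.70 and -0.87 under the same settings, and -0.11 on log2(TPM + 1) with and without a filter). With 1 library left out they turned for COL15A1 (-1.29 without 44a), SLX1B (1.40 without 44b, 1.38 without 3.11) and ACTC1 (-2.05 without 44b, -1.66 without 3.11, -0.03 without 44a). They also turned for FOXL2 (-0.08) and KIT (1.28) without 4.72 and for CCNB2 (0.64) without 3.11, none of them called.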
